A study of Mus musculus with 6 samples.

Results

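The genes described here are 5 members of the Ly6 family: Ly6d, Ly6e, Ly6a, Ly6c1 and Ly6c2. They were taken by gene name and versioned Ensembl identifier from the 55450 genes counted in 6 bulk RNA-Seq libraries of mouse hepatocytes, 3 made before any injury (0 h) and 3 made 48 h after partial hepatectomy (PHx), an operation that takes away most of the liver. All of the mice were male C57BL/6 animals (C57BL/6J in the study's methods), given as 10 to 12 weeks old in the labels, and the hepatocytes were released by collagenase perfusion. Each library came from its own hepatocyte preparation, and no sham-operated group is among these samples, so the effects of surgery and of lost liver mass cannot be told apart. The set was chosen by the measured counts, since it was drawn up with the difference between 0 h and 48 h already known and with Ly6d as its leading gene. The values of the 5 genes at both times are therefore given as a description, with no test.

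Ly6 genes encode small cell surface proteins with a cysteine-rich domain, in which disulfide bonds hold a compact core from which finger-like loops extend. Most are attached to the outer leaflet of the plasma membrane by a glycosylphosphatidylinositol (GPI) anchor, a lipid that is added in the endoplasmic reticulum. The family is known mainly from blood cells, where its antibodies are used to sort cell types, and a large part of it lies in a single cluster of mouse chromosome 15. Ly6d, also called ThB, marks lymphoid progenitors that are set on the B lineage and is also made in squamous epithelium. Ly6e is made in many tissues and is induced by interferon. Ly6a is the stem cell antigen Sca-1, found on hematopoietic stem cells and on endothelial cells, and is also interferon-inducible. Ly6c1 and Ly6c2 encode the Ly6C antigen of monocytes, lymphocytes and endothelial cells.

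The 5 genes lie on chromosome 15 of GRCm38 (mm10) within 349.92 kb. Ly6d (ENSMUSG00000034634.7) spans chr15:74762056-74763620 on the minus strand, with 744 exon bases. Ly6e (ENSMUSG00000022587.14) spans chr15:74955051-74959905 on the plus strand, with 3784 exon bases over all its transcripts. Ly6a (ENSMUSG00000075602.10) spans chr15:74994877-74998031, Ly6c1 (ENSMUSG00000079018.10) spans chr15:75044018-75048830 and Ly6c2 (ENSMUSG00000022584.14) spans chr15:75108158-75111970, all on the minus strand. No exon of the 5 genes overlaps an exon of another annotated gene on either strand. All 5 are protein coding, and their values below are sums over exons.

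A stretch of 300 coding bases of Ly6d and of Ly6e is printed because these genes held most of the difference between the times. Each starts at the gene's first cysteine codon in the main GENCODE M21 transcript (codon 23 of Ly6d, codon 29 of Ly6e), reads 5′ to 3′ and has the in-frame cysteine codons in capitals.

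Ly6d: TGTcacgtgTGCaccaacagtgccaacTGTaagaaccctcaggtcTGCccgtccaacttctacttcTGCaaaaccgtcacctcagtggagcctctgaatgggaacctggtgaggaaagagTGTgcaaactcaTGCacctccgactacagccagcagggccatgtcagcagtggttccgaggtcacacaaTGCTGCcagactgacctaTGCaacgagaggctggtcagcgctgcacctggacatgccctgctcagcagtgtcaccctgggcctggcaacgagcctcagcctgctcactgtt

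Ly6e: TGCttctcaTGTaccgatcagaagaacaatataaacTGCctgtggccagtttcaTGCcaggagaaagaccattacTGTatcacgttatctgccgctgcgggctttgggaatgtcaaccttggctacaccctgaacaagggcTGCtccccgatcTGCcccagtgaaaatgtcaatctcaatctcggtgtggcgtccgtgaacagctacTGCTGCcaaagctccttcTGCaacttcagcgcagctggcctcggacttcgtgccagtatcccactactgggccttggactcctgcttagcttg

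Each stretch holds 10 cysteine codons, in both with a pair side by side and with a last one followed by the codon aac. The whole Ly6d reading frame held 127 codons before the stop, 11 of them for cysteine, and that of Ly6e held 136 codons with 10 cysteines. The whole coding sequences of Ly6d and Ly6e were identical at 52.5% of aligned columns. No stretch of 50 bases of a Ly6d or Ly6e transcript occurred in an annotated transcript of another gene.

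The opening 90 coding bases of Ly6c1 and Ly6c2, from their main transcripts, are printed to show how close this pair is, with the bases at which they differ in capitals.

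Ly6c1: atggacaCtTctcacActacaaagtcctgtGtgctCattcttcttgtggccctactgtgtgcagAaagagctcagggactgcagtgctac

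Ly6c2: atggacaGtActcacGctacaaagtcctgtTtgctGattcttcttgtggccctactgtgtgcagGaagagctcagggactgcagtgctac

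The printed stretches hold 6 of the 9 differences between the whole coding sequences, which were 396 bases long, 97.7% identical, and shared an unbroken run of 188 bases. Of the distinct 50-base stretches of the Ly6c1 transcripts, 32.8% also occurred in another gene, 379 of them in Ly6c2. For Ly6a, whose coding sequence was identical to that of Ly6c1 at 82.0% of aligned columns, the share was 19.0%. For Ly6c2 the share was 14.5%. With stretches of 100 bases the shares were 10.1% for Ly6c1, 5.81% for Ly6c2 and 1.45% for Ly6a. The deposited files list 0 reads as aligned to several places, so reads from such stretches may have been lost before counting. The values of Ly6a, Ly6c1 and Ly6c2 are uncertain for that reason. By how much depends on the read length and was not measured.

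Ly6d was almost without reads at 0 h and well counted at 48 h. At 0 h its counts were 3, 4 and 4, where 3 counts (0.0825 to 0.0955 CPM, reads scaled to a common library size) were set as the floor of a library. At 48 h after PHx its counts were 1226, 703 and 765. All 3 libraries at 0 h stood at or next to this floor, and every 48 h library stood far above them. In CPM scaled with TMM factors, which correct for differences in RNA composition between libraries, Ly6d was at 0.117 ± 0.0137 (SD, n = 3) at 0 h and at 26.0 ± 9.10 (SD, n = 3) at 48 h. The lowest 48 h library was 153 times the highest 0 h library. Within the 48 h group the first replicate, at 36.4 CPM, was the highest, above 19.7 and 21.8 CPM in the others, and the highest was 1.85 times the lowest. The ratio of summed counts at 48 h to those at 0 h, corrected for library size and TMM factors, was 219.5, and its exact 95% counting interval ran from 122.5 to 440.2, because the 0 h side rests on 11 reads in all. The intervals and the floor cover counting error only. The fitted log2 fold change was 7.74 (SE 0.36), which ranked Ly6d at number 8 of the 17037 genes that had at least 10 counts in at least 3 libraries and were fitted. It stayed between 7.40 and 7.89 when each library was left out in turn.

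Ly6e was abundant at both times. Its counts were 8209, 8705 and 10985 at 0 h and 17323, 12465 and 14714 at 48 h. Each 48 h library lay above each 0 h library in CPM, though the gap was narrow, with the lowest 48 h library at 1.05 times the highest 0 h library. The level was 296.9 ± 29.4 (SD, n = 3) CPM at 0 h and 427.7 ± 83.1 (SD, n = 3) CPM at 48 h, and the fitted log2 fold change was 0.53 (SE 0.16). As for Ly6d, the first replicate was the highest at 48 h. The log2 fold change was 0.36 without that library, 0.48 without the first and 0.49 without the second 0 h replicate.

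Ly6a was low and its groups overlapped. Its counts were 60, 99 and 84 at 0 h and 100, 113 and 100 at 48 h, which gave 2.59 ± 0.576 (SD, n = 3) and 2.995 ± 0.154 (SD, n = 3) CPM. The fitted log2 fold change was 0.21 (SE 0.21), no larger than its error. It was 0.07 without the first and 0.39 without the second 0 h replicate. The ratio of summed counts was 1.15 with a 95% counting interval of 0.973 to 1.37.

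Ly6c1 and Ly6c2 stood near the floor throughout. Ly6c1 had 4, 2 and 5 counts at 0 h and 4, 10 and 8 at 48 h. The ratio of its summed counts was 1.79, with a 95% counting interval of 0.833 to 4.09. Ly6c2 had 2 counts in each 0 h library and 1, 1 and 2 at 48 h, at or under the floor of 3 counts in all 6 libraries, so no fold change is given for it. Its CPM values at 48 h all lay below those at 0 h, as for 25.0% of the fitted genes, but they rest on 1 or 2 reads each. A difference between the times was not detectable for either gene at this depth.

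**Figure D1:**
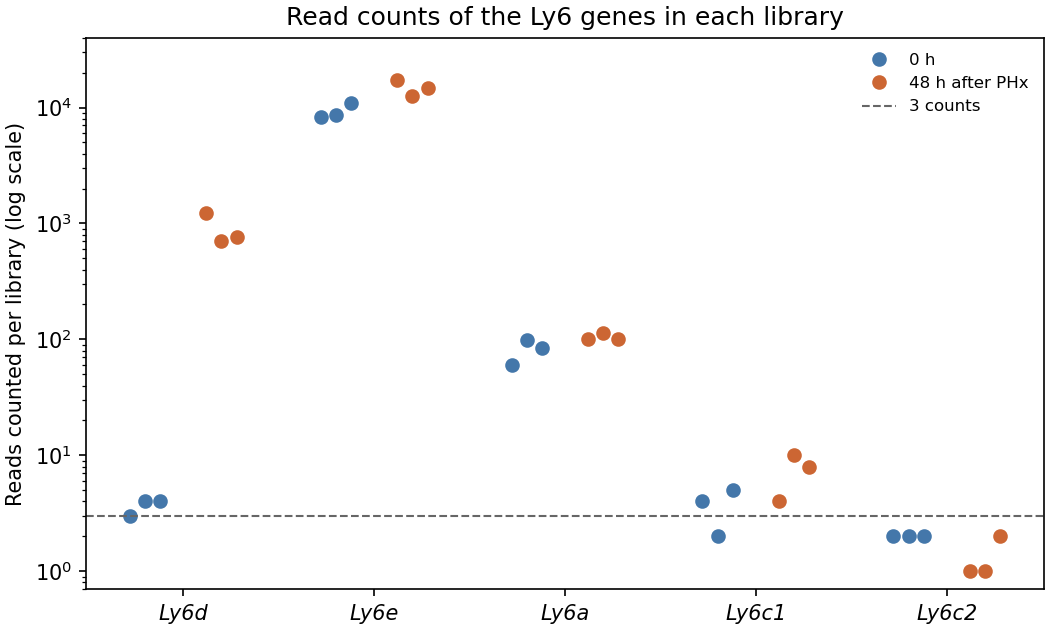
Reads counted per library on a log scale for each of the 5 Ly6 genes, with 1 point per library (3 at 0 h, 3 at 48 h after PHx) and a dashed line at 3 counts. Ly6d moves from 3 to 4 counts to 703 to 1226, Ly6e lies at 8209 or above in every library, Ly6a overlaps between the times, and Ly6c1 and Ly6c2 stay at 10 counts or fewer.

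Of the 5 genes, 3 passed the filter on low counts (Ly6d, Ly6e and Ly6a), and Ly6d passed it through its 48 h libraries alone. In the edgeR fit, with p-values of its quasi-likelihood test adjusted over all 17037 genes (Benjamini-Hochberg), 21.4% of genes were higher at 48 h and 19.3% were lower at an adjusted p under 0.05. These shares are given as background, with no call for the Ly6 genes. Every 48 h value of Ly6d and Ly6e exceeded every 0 h value, as for 27.8% of the fitted genes. The contrast was used to choose the set, so nothing is read from this. Of all the genes called, 52.5% were higher with TMM factors, 44.5% with upper-quartile factors and 71.6% with scaling to library size alone. The last moved the median log2 fold change of all fitted genes from -0.0033 to 0.1985. With library size alone, Ly6e had a log2 fold change of 0.72 and Ly6a of 0.41.

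Levels of different genes were compared per length, as RPKM, the TMM-scaled CPM divided by the exon length in kb. At 0 h the order was Ly6e at 78.5 ± 7.76 (SD, n = 3), Ly6a at 2.15 ± 0.478, Ly6d at 0.157 ± 0.0184, Ly6c1 at 0.0698 ± 0.0275 and Ly6c2 at 0.0235 ± 0.00143 RPKM. The ranges of Ly6d and Ly6c1 did not overlap on this scale, but both rest on 11 reads. With the length of the main transcript in place of all exons, Ly6c1 was at 0.139 RPKM and its range of 0.0764 to 0.178 held that of Ly6d, so these neighbours cannot be ordered at 0 h. On that scale Ly6c2, at 0.0733 to 0.0828 RPKM from 6 reads, overlapped Ly6c1, so this pair cannot be ordered either. At 48 h Ly6d stood next to Ly6e and above Ly6a. Its level was 34.9 ± 12.2 (SD, n = 3) RPKM, against 113.0 ± 22.0 for Ly6e and 2.49 ± 0.128 for Ly6a, and the ranges of these genes did not overlap. Among the fitted genes, the mean RPKM of Ly6d lay at percentile 8.80 at 0 h and at percentile 94.9 at 48 h. Ly6e lay at percentiles 97.3 and 98.4, and Ly6a at 51.6 and 53.7.

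The summed RPKM of the 5 genes was 75.8 to 89.8 at 0 h and 121.4 to 187.4 at 48 h. Ly6d made up 0.180% to 0.225% of this sum at 0 h and 20.5% to 26.1% at 48 h. The share of Ly6e was 96.3% to 97.4% at 0 h and 72.5% to 77.7% at 48 h. With main transcript lengths the share of Ly6d at 48 h was 13.5% to 17.6%. The difference between the group means was 34.7 RPKM for Ly6d and 34.6 RPKM for Ly6e with all exons. With the main transcript of Ly6e, which is shorter than the union of its exons, the difference for Ly6e was 57.4 RPKM, and no order of Ly6d and Ly6e is read from these differences.

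**Figure D2:**
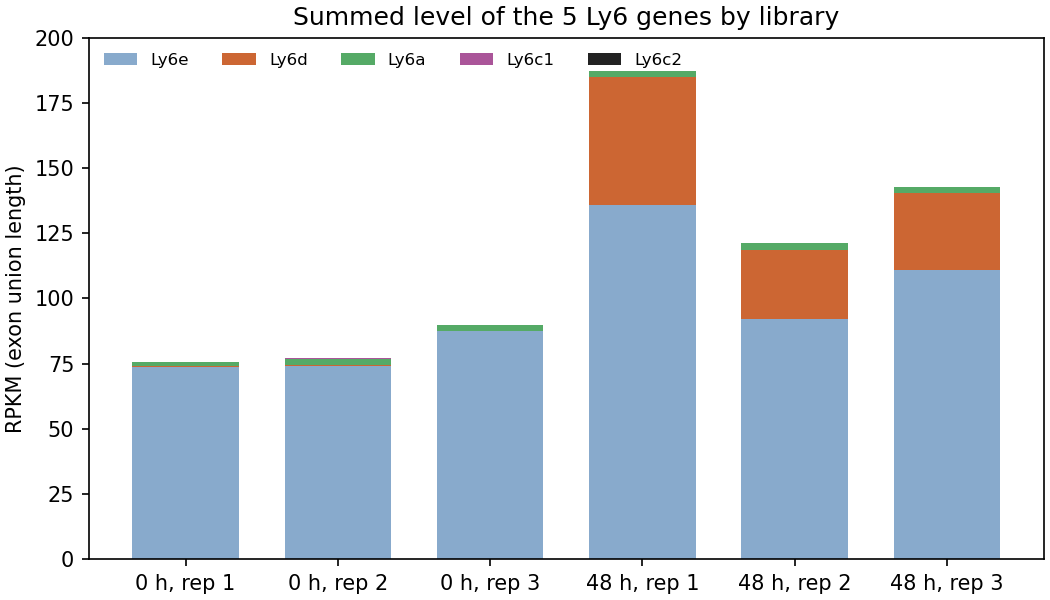
RPKM of the 5 Ly6 genes, calculated with the length of all exons, stacked for each of the 6 libraries (3 replicates at 0 h and 3 at 48 h after PHx). Ly6e fills nearly the whole bar at 0 h, and a Ly6d segment of 20.5% to 26.1% of the bar appears at 48 h.

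Because Ly6d is a gene of lymphoid and squamous cells in other tissues, markers of those cells were set beside it. The summed level of 8 B cell markers was 1.45 to 1.70 CPM at 0 h and 2.52 to 4.17 CPM at 48 h, without overlap. Per exon length, the sum of the list at 48 h was 1.68 to 2.31 RPKM, and its mean was 5.70% of the mean RPKM of Ly6d alone. Of the 8, Blnk, a B cell receptor adaptor, and Vpreb3, a gene of the B lineage, were fitted. Both were higher, against 21.4% of all fitted genes (Blnk 19, 19 and 11 to 40, 78 and 60 counts, Vpreb3 22 in each library to 40, 52 and 46). Defining markers were close to 0: Ms4a1, which encodes CD20, had 1, 2 and 1 counts at 0 h and then 0 in each library, and Cd79a, a chain of the B cell receptor, had 2, 0 and 1 counts and then 3, 8 and 7. The 10 squamous markers summed to 0.361 to 0.715 CPM at 0 h and 0.543 to 1.09 CPM at 48 h, which overlapped. The mean of their summed RPKM at 48 h was 1.69% of that of Ly6d. Sprr1a had 2, 0 and 0 counts and then 13, 12 and 0, and Trp63 had 4, 0 and 0 and then 8, 6 and 4. Ivl, Krt15 and Krt6a were at 0 in every library, and Krt5, Krt13, Krt14 and Dsg3 had 0 to 3 counts in each. Sfn, the 1 fitted gene of the list, was not called. The part of the B cell and squamous markers in the Ly6d difference was not tested.

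Markers of other cells that a liver preparation can hold were set beside the Ly6 genes in the same way. The 10 T and NK cell markers summed to 2.90 to 4.29 CPM at 0 h and 1.37 to 2.07 CPM at 48 h. Most of these reads were on Cd4 (119, 82 and 88 counts, then 51, 65 and 47), the 1 fitted gene of the list, while each of the other 9 had under 10 counts over the 6 libraries, and Cd3d and Ncr1 were at 0 in every library. The 13 monocyte and neutrophil markers summed to 1.87 to 2.14 and 2.38 to 2.99 CPM, without overlap, and Mpo and Retnlg were at 0. The granule genes Camp (2, 3 and 0 counts, then 6, 19 and 26) and Elane (5, 1 and 3, then 13, 16 and 8) had more reads at 48 h. Ccr2 (4, 2 and 3 counts, then 2, 0 and 2) and S100a9 (3, 0 and 0, then 0 in each library) had fewer. S100a8, Cxcr2, F13a1, Chil3 and Ngp had 0 to 3 counts in every library. Of the 2 fitted genes of the list, Plac8 was higher (log2 fold change 0.79) and Csf3r was lower (-1.15). The 8 plasmacytoid dendritic cell markers summed to 80.2 to 80.5 and 67.9 to 70.1 CPM, mostly from Bst2 and Tcf4, but as a share of gene counts the log2 ratio of the sums was -0.01. Per exon length most of the sum came from Bst2 alone, with 903 exon bases against 27382 for Tcf4. Bst2 is also in the list of interferon-stimulated genes below. Siglech, which is specific to these cells, had 0 to 2 counts. Endothelial markers were lower at 48 h for 11 of 12 genes, against 19.3% of all fitted genes, and their sum was 272.0 to 413.8 CPM at 0 h and 193.9 to 220.3 CPM at 48 h. Kupffer cell markers summed to 78.3 to 118.4 and 111.7 to 137.2 CPM, which overlapped, with Marco and Cd5l higher and the other 8 not called, against 21.4% of all fitted genes higher. Cholangiocyte markers summed to 9.41 to 20.8 and 16.7 to 26.2 CPM, and these ranges overlapped. Most of the cholangiocyte reads were on Sox9 (530, 228 and 467 counts, then 662, 505 and 652), which was not called, and Spp1 was higher (74, 47 and 29 counts, then 150, 78 and 256). Krt19, a defining keratin, had 1, 4 and 0 counts at 0 h and 0 in each library at 48 h. The hepatocyte label was matched by its 12 markers, which were all measured and summed to 115900 to 135180 CPM at 0 h and to 81367 to 99662 CPM at 48 h. Alb was the largest part of this sum, with a mean of 63550 CPM at 0 h and 35070 CPM at 48 h. Of the 12, 1 was higher, 4 were lower and 7 were not called, against 21.4% and 19.3% of all fitted genes. In bulk libraries, fewer cells of a type and less RNA per cell cannot be told apart, and the part of these lists in the values of Ly6e, Ly6a and the Ly6c genes was not tested.

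**Figure D3:**
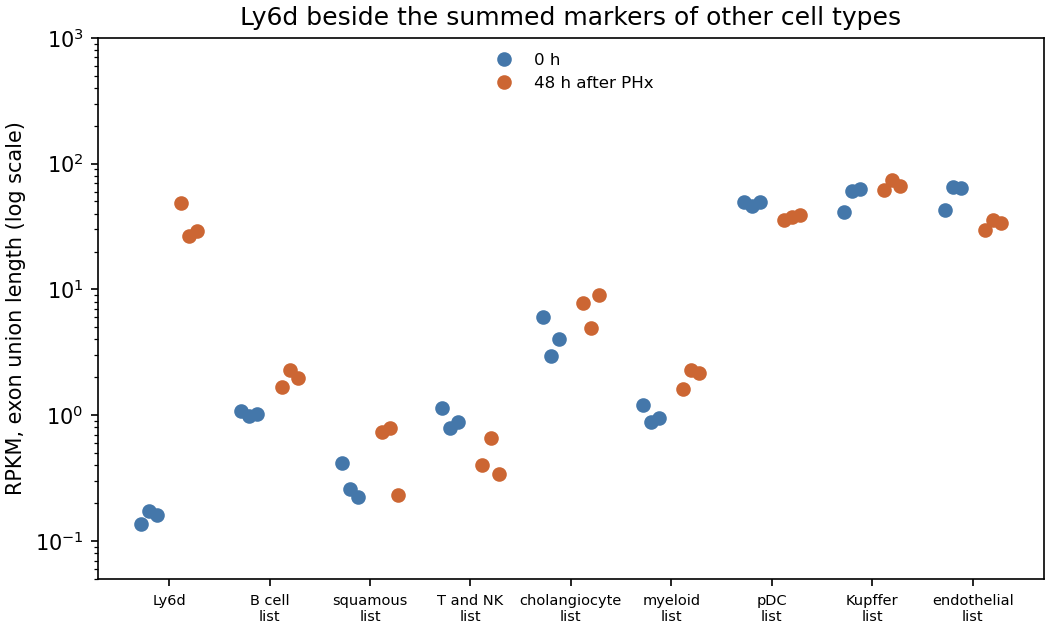
RPKM (TMM-scaled CPM per kb of exon, log scale) of Ly6d and of the summed markers of 8 other cell types (pDC, plasmacytoid dendritic cell; myeloid, monocyte and neutrophil), 1 point per library, at 0 h and at 48 h after PHx. At 48 h Ly6d (26.4 to 48.9 RPKM) lies above the sums for B cell (1.68 to 2.31), squamous (0.232 to 0.799), T and NK cell (0.342 to 0.655), cholangiocyte (4.91 to 9.07) and myeloid markers (1.62 to 2.28), overlaps those for plasmacytoid dendritic cell (35.9 to 39.0) and endothelial markers (29.8 to 35.4), and lies below that for Kupffer cell markers (61.3 to 74.2). Most of the plasmacytoid sum is from the gene Bst2.

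The genes with the profiles most like those of the fitted Ly6 genes were found by the root mean square distance between log2 CPM values over the 6 libraries, each centred on its own mean, with 0.05 CPM added. For Ly6d these were Uhrf1, which binds hemimethylated DNA behind the replication fork (distance 0.289), Saa1, an acute-phase apolipoprotein (0.317), and Iqgap3, a scaffold protein of dividing cells (0.433). Saa1 had 103936, 54136 and 50351 counts at 48 h, from 570, 378 and 432 at 0 h, Uhrf1 had 4017, 3534 and 3082, from 13, 17 and 28 at 0 h, and Iqgap3 had 2347, 2468 and 1571, from 10, 22 and 19. For Ly6e the nearest profiles were those of Prepl (0.0595), Serinc3 (0.0670) and Setd7 (0.0679), and for Ly6a those of Pfdn4 (0.0587), AC133451.1 (0.0591) and Rpl37rt (0.0622). The distances describe 6 libraries in 2 groups, in which the step between the times makes up most of the Ly6d profile.

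Around the Ly6 genes most annotated genes had few reads or none. Within 250 kb of the 5 genes the annotation has 43 others, 21 of them protein coding, and 5 had enough counts to fit. Of these, Lynx1 was higher at 48 h, Jrk, Them6 and BC025446 were not called, and the noncoding RNA Gm28068 was fitted through its 48 h libraries alone, so its call is not counted. Of all fitted genes, 21.4% were higher and 19.3% lower. Lynx1, a GPI-anchored modulator of nicotinic acetylcholine receptors, lies 9.01 kb from Ly6d at chr15:74747852-74753046. It had 12, 16 and 12 counts at 0 h and 43, 47 and 40 at 48 h, without overlap, and its log2 fold change was 1.53 (SE 0.28, Benjamini-Hochberg adjusted p = 0.00159 by the edgeR test). Gm28068, 9.27 kb from Ly6a, had 4, 7 and 8 counts at 0 h, all under the filter, and 16, 33 and 19 at 48 h. BC025446 was well counted at both times, with 54.6 ± 4.04 (SD, n = 3) CPM at 0 h and 55.4 ± 8.78 (SD, n = 3) CPM at 48 h, and its groups overlapped. RefSeq places the family member Ly6g2 at this gene. Jrk had a log2 fold change of 0.52 (SE 0.22) and Them6 of 0.43 (SE 0.19), and 18.1% of the Them6 exon bases overlap Slurp1 on the other strand. Both passed the threshold with scaling to library size alone (0.72 and 0.63), and Them6 also without the third 0 h replicate (0.61).

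**Figure D4:**
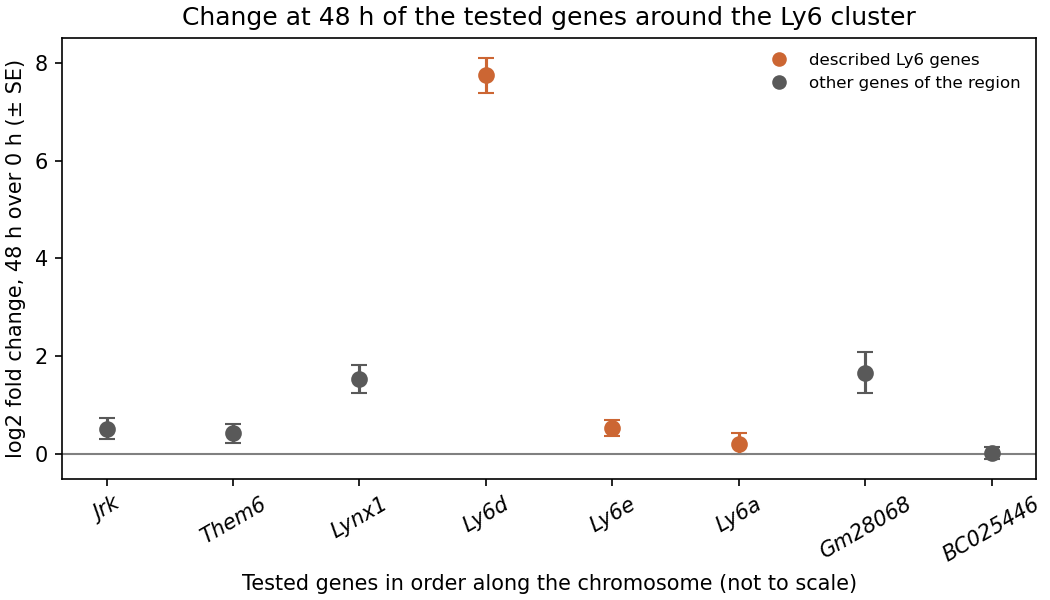
Log2 fold change, 48 h over 0 h, with its standard error for the 8 fitted genes of the Ly6 region, in their order along chromosome 15 (spacing not to scale). Ly6d, at 7.74, stands apart from Lynx1 (1.53) on its left and Ly6e (0.53) on its right.

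Most of the wider family, the Ly6/uPAR genes, was too low to fit. Of 43 listed genes outside the 5, all were in the annotation, 32 had under 10 counts over the 6 libraries, 18 of them none, and 8 were fitted. Of these 8, 1 was higher (Lynx1, above), 3 were lower and 4 were not called, against 21.4% and 19.3% of all fitted genes, and the median log2 fold change was -0.07 against -0.0033 for all. The genes lower at 48 h were Gpihbp1, Cd59b and Cd59a. Gpihbp1, which carries lipoprotein lipase across the capillary endothelium, had 139, 232 and 191 counts at 0 h and 82, 94 and 56 at 48 h, and fell by 1.43 on the log2 scale (SE 0.24, adjusted p = 0.000983 by edgeR). The endothelial marker list fell beside it, as given above, and its part in the Gpihbp1 value was not tested. Cd59a and Cd59b encode inhibitors of the complement membrane attack complex. Cd59a had 667, 656 and 981 counts at 0 h and 331, 481 and 500 at 48 h (log2 fold change -0.97, SE 0.17, adjusted p = 0.00133 by edgeR), and Cd59b had 110, 132 and 182 and then 49, 80 and 59 (log2 fold change -1.32, SE 0.23, adjusted p = 0.00126 by edgeR). These are paralogs, and reads that they share may have been lost or split. Plaur, the urokinase receptor, had 6, 13 and 6 counts at 0 h and 20, 15 and 19 at 48 h, and reached 10 counts in every library at 48 h alone, so no test is given for it. Lypd1 and Ly6g5b had log2 fold changes of -0.17 and 0.04.

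The enzymes that make the GPI anchor were nearly all measured, with 29 of 30 listed genes fitted. Of these, 3 were higher and 8 lower at 48 h, against 21.4% and 19.3% of all fitted genes, and the median log2 fold change was -0.22 against -0.0033, but with library size alone 6 were higher and 1 was lower, and with upper-quartile factors 2 and 11, so the direction of the list depends on the scaling. The lower count was 3 without the second 48 h replicate and 4 without the third 0 h replicate, and the higher count was 1 without the second 48 h replicate. Piga and Pigv kept their direction and call under all 13 alternatives. Piga, the catalytic subunit of the enzyme that begins anchor synthesis, had 135, 143 and 133 counts at 0 h and 600, 419 and 437 at 48 h (log2 fold change 1.67, SE 0.18, adjusted p = 5.99e-05 by edgeR). Pigv, the second mannosyltransferase of the pathway, had 293, 406 and 390 counts at 0 h and 180, 183 and 191 at 48 h (log2 fold change -1.13, SE 0.15, adjusted p = 0.00018 by edgeR). No replicate of one time overlapped the other in either gene. Pgap2, which acts in remodelling the anchor lipid, and Gpaa1, a subunit of the transamidase that joins protein and anchor, were higher by 0.42 and 0.32 on the log2 scale, and Gpaa1 lost its call in 8 of the 13 alternatives. The other subunits of that transamidase were not higher. Pigk (-0.41) and Pigs (-0.28) were lower, and Pigt (-0.27) and Pigu (-0.10) were not called. Pigk lost its call with library size alone, and Pigs in more of the alternatives. Pigc, a partner of Piga, had a log2 fold change of -0.60, Pigyl of -0.58, Dpm1, which makes the mannose donor, of -0.52, Pigx, a subunit of the mannosyltransferase before Pigv, of -0.47, and Pigg, which adds a side group to the anchor, of -0.45. Pigx and Pigg lost their calls in 6 and 5 of the 13 alternatives.

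Since Ly6e and Ly6a are interferon-inducible genes, the interferon-stimulated genes were set beside them. Of 45 listed genes outside the Ly6 family, 44 were fitted, 15 were lower at 48 h, 1 was higher and 28 were not called, against 19.3% lower and 21.4% higher among all fitted genes. With library size alone 11 were lower and 5 higher. The median log2 fold change was -0.40 against -0.0033 for all fitted genes. The lower genes included Rsad2 (viperin, an antiviral enzyme), with 253, 400 and 420 counts at 0 h and 78, 132 and 99 at 48 h (log2 fold change -1.95, SE 0.22, adjusted p = 6.89e-05 by edgeR). Among them were also Ifit1 (-1.78) and Ifit3 (-1.67), which encode RNA-binding antiviral proteins, and Cmpk2 (-1.33), a mitochondrial nucleotide kinase. The 15 include Ifit3b (37, 35 and 44 counts, then 3, 14 and 6) and Mx1, a dynamin-like antiviral GTPase (24, 26 and 28, then 5, 12 and 11), which reached 10 counts in every library at 0 h alone, so nothing is read from their calls. Ifit3 and Ifit3b are close copies, so their values are uncertain. Zbp1, a sensor of Z-form nucleic acids, was the gene that was higher, with 148, 117 and 127 counts at 0 h and 381, 439 and 324 at 48 h (log2 fold change 1.38, SE 0.17, adjusted p = 0.000154 by edgeR). The log2 fold changes of Ly6e (0.53) and Ly6a (0.21) lay above the median of this list, and whether they differ from it was not tested.

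**Figure D5:**
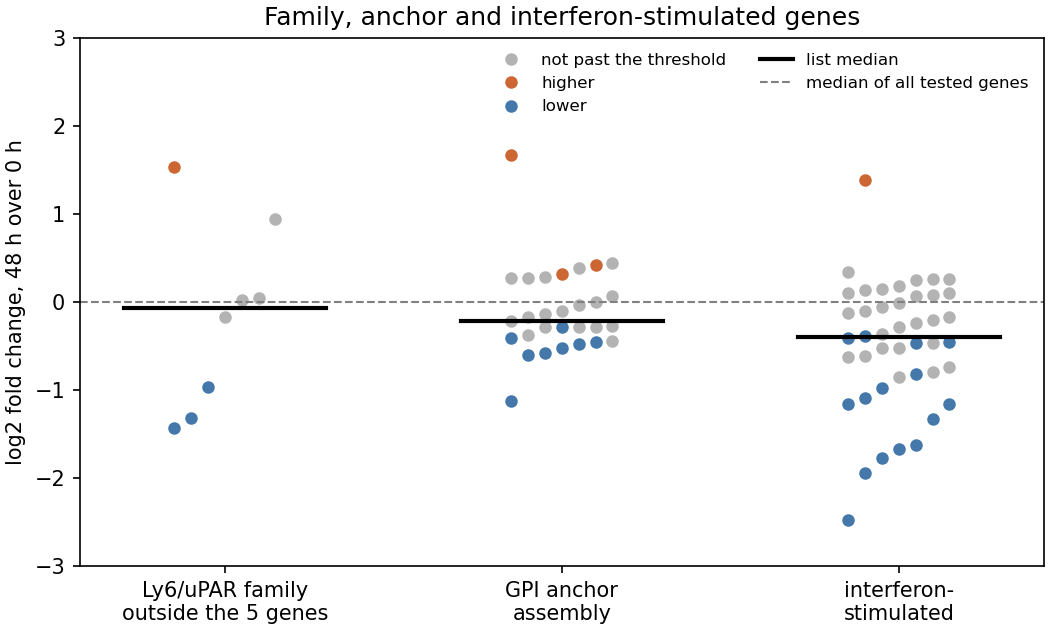
Log2 fold change, 48 h over 0 h, of each fitted gene of the Ly6/uPAR family outside the 5 genes (8 genes), of GPI anchor assembly (29) and of the interferon-stimulated list (44), coloured by direction where the adjusted p was under 0.05, with the list medians as bars and the median of all fitted genes as a dashed line. The medians are -0.07, -0.22 and -0.40. With scaling to library size alone the anchor list has 6 genes higher and 1 lower, in place of 3 and 8.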

How the data were processed

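Bulk RNA-Seq was made by the authors from 6 hepatocyte preparations. The deposited values are raw counts of reads per gene, without normalization, in the layout of htseq-count. The submitters' processing notes name FastQC 0.11.5, Trim Galore 0.6.4, STAR 2.6, HTSeq 0.12.4, DESeq2 and mm10; the counting mode and strand setting are not given in the sources used here, so reads of antisense partners may not be told apart. All 55450 identifiers were those of GENCODE M21. Counts on genes summed to 31419443 to 36346220 per library at 0 h and 31684152 to 33093006 at 48 h. Reads on no gene were 24.33% to 32.74%. Same-group libraries differed by more than sampling noise.

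Times were compared with edgeR 4.0.16 in R 4.3.3 (TMM factors, quasi-likelihood test, time as the only term, a minimum of 10 counts in 3 or more libraries, Benjamini-Hochberg adjustment, threshold 0.05). The standard error is the size of the log2 fold change divided by the square root of F. The code was tested on simulated data. The Ly6 genes and all lists were chosen with earlier results of these data known. Named genes were the 5 Ly6 genes, the 3 nearest profiles of each fitted one, and fitted genes within 250 kb. List genes past the threshold were also named (up to 6 a direction, by fold change). Plaur, Lypd1, Ly6g5b, Pigk, Pigs, Pigt, Pigu and the markers are named outside these rules, after their values were seen. Symbols Ly6g2, Ly6m, Lypd10 and Lypd11 were matched to M21 genes through RefSeq positions on GRCm38. Alternatives were other scaling factors, DESeq2 1.42.0, other filters, a replicate block, a prior count of 2, marker shares of counts, and leaving out each library. The age of the mice is 9 to 10 weeks in the study's methods, against 10 to 12 in the labels. The counts of 1 marker gene are not reported here.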

Additional observations from a re-analysis of the deposited data

How the results depend on the processing

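Depth limits Ly6c1 and Ly6c2, and the 0 h side of Ly6d, which rests on 11 reads. The log2 fold change of Ly6d was 7.19 to 7.93 over the alternatives that kept all libraries, the lowest with a prior count of 2, and that of Ly6a 0.12 to 0.41, or 0.07 to 0.39 when libraries were left out. With upper-quartile factors 3142 genes were higher and 3924 lower. With library size alone 2110 genes were lower and 5308 higher, 6 GPI anchor genes were higher and 1 lower, and 5 interferon-stimulated genes were higher. Of the Ly6/uPAR genes, Lynx1 stayed higher. Plaur was then called too, but it was fitted through its 48 h libraries alone, so its call is not counted. Without a filter on low counts 3890 of 31260 genes were higher. Beside Lynx1, the Ly6/uPAR genes Ly6f, Acrv1 and 2010109I03Rik were then called higher. They had 0 to 2 counts in each 0 h library, so these calls are not counted. Lynx1 stayed higher when each library was left out. Plaur was also called without the second 0 h replicate, and that call is not counted either. Leaving out each library gave 1 to 4 higher GPI anchor genes (1 without the second 48 h replicate). It gave 3 to 8 lower ones (4 without the third 0 h replicate, 3 without the second 48 h replicate). For interferon-stimulated genes it gave 1 to 2 higher (2 without the second 0 h replicate). BC025446 turned to -0.0639 with upper-quartile factors and ran from -0.13 to 0.10 when libraries were left out. Gpaa1 kept its call in 5, Pigx in 7, Pigg in 8, Pigyl in 10 and Dpm1 in 11 of 13 alternatives. The cause of these changes was not tested. Libraries that share a number are not from the same mouse, and their deviations from the group means correlated at 0.033, -0.067 and -0.138, so the numbers do not pair them. With the replicate block, 3237 genes were higher and 2884 lower, and Ly6d was at 7.71 and Ly6e at 0.51. Gpaa1, Pigx and Pigs lost their calls there, which left 2 GPI anchor genes higher and 6 lower. The T and NK, B cell, Kupffer, endothelial, squamous and cholangiocyte sums kept their direction as shares of counts, and the monocyte, hepatocyte and plasmacytoid sums moved to log2 ratios of 0.63, -0.32 and -0.01.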

Other observations

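Some genes of the Ly6 region and family had too few counts to fit and are given by their counts. They were chosen after their values were seen, so no direction of the region or family is read from them. Arc, an immediate early gene 89.5 kb from Ly6d, had 2 counts in each 0 h library and 7, 11 and 9 at 48 h. The gene 2010109I03Rik, which RefSeq calls Ly6m and which lies 58.0 kb from Ly6e, had 1, 0 and 2 counts and then 13, 5 and 9. The noncoding RNA Gm39556, 18.7 kb from Ly6e, had 1, 0 and 4 and then 6, 8 and 6. Ly6f had 0 in each 0 h library and 4, 3 and 2 at 48 h, and Acrv1, a gene of the sperm acrosome, had 0 in each and then 5, 6 and 1. Other genes had fewer reads at 48 h or varied within a group. Lypd8 had 0, 4 and 0 counts and then 0 in each library, Ly6g6e had 2, 1 and 1 and then 1, 0 and 0. Adgrb1 had 1, 1 and 1 and then 1, 1 and 0, and Gm28069 had 0, 1 and 9 and then 1, 17 and 5. Ly6g, the neutrophil antigen, had 0 counts in 5 of 6 libraries and 2 in the first 48 h replicate, and Ly6k, Psca, Lypd2 and Slurp2 had no read in any library.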
